A study of Paeonia lactiflora with 8 samples.

Results

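Leaf and flower of the herbaceous peony Paeonia lactiflora were compared by their small RNA, in 2 libraries of leaf and 2 of flower, all collected at the blossom period. The labels give no cultivar, age or treatment for either organ. These are 4 of the 8 libraries of a series on root, leaf, flower and young fruit that asks how gene regulation differs between organs that differ in paeoniflorin, a monoterpene glucoside. A miRNA entered the comparison when its value was 1 or more in at least 2 of the 4 libraries, and 187 of the 270 different mature sequences did. Of the 83 that did not, 34 were listed at 0 in all 4 libraries. The labels call the libraries of an organ biological replicates without saying whether they came from separate plants, so the p-values measure the spread between these libraries. The table holds only small RNA and no gene that defines leaf or flower, so the organ labels were not checked against markers.

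Plant miRNAs are cut from hairpin precursors as a duplex of about the length of the mature strand, and the strand that enters an Argonaute protein guides cleavage or repression of messenger RNAs with a closely matching site. Many families are old and each keeps 1 kind of target across land plants. The targets named here are background from other plants, mainly Arabidopsis thaliana, and were not measured.

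The sequences on which the comparison turns, as deposited, are given 5′ to 3′ as DNA letters, with the seed, bases 2 to 8, in capitals. Names are as deposited: L and R give bases gained or missing at an end against the miRBase entry, ss gives substitutions, and p3 or p5 marks an arm of a known hairpin not listed in miRBase. The first set is the miR156/miR157 family, shown because its members went different ways.
ath-miR157a-5p_2ss12TG15AG: tTGACAGAagagagggagcac
vvi-miR156a_L+1_1ss21CT: tTGACAGAagagagggagcat
gma-MIR156f-p3_1ss12CG: gCTCTCTCttcgtctgtcatca
ath-miR156j_1ss14AT: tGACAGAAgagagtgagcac
zma-miR156a-3p_1ss22TG: gCTCACTTctctctctgtcagg

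The second set is the miR171 family, shown because some of its rarer members differed between the organs far more than its main form, the last of the set.
sly-miR171e: tTGAGCCGcgtcaatatctct
aly-miR171b-3p: tTGAGCCGtgccaatatcacg
lja-miR171c: tGAGCCGAatcaatatcactc
ath-miR171a-3p_1ss17AG: tGATTGAGccgcgccagtatc

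The third set holds sequences of the families that were higher in leaf, with both arms of miR395.
vvi-miR167b: tGAAGCTGccagcatgatcta
vvi-miR393a_R+1: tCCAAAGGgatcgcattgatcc
aly-miR395d-5p_2ss5TC8CG: gTTCCCCGgaacacttcattg
mdm-miR395a: cTGAAGTGtttgggggaactc
mtr-miR397-5p_L-2R+2: aTTGAGTGcagcgttgatgaa
ath-miR408-3p_L-1R+1_2ss12CT15CT: tGCACTGCctttttcctggct

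The fourth set holds miR319, which differed between the organs, beside the related miR159, and 3 sequences of miR390.
ath-miR319a: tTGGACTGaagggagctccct
ath-miR159a: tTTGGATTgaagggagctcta
ath-miR390a-5p_1ss19GA: aAGCTCAGgagggatagcacc
ptc-miR390a_R+1: aAGCTCAGgagggatagcgccc
ath-miR390a-3p_1ss8CT: cGCTATCTatcctgagtttca

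All values are normalized read counts as deposited. The libraries summed to 267174 in leaf 1, 246133 in leaf 2, 224292 in flower 1 and 536568 in flower 2. The value of 1 read, inferred from the steps between low values, gave implied depths of 254828, 331706, 519033 and 724509 reads in that order. A value of 3 reads was 3.15 in leaf 1, 2.23 in leaf 2, 1.3 in flower 1 and 2.22 in flower 2, which covers counting error only. Across the 187 miRNAs (not independent of each other) Pearson's r on the log2 scale was 0.905 between the leaf libraries and 0.87 between the flower libraries, against 0.688 to 0.73 between a leaf and a flower library.

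Flower held more of the summed miR156/miR157 family, mainly through a single miR157 sequence, more miR319 and more of some minor miR171 forms, and leaf held more miR167, miR393, miR395, miR397 and miR408. Between the organs, 19 of the 187 miRNAs were called by limma in a fit of the 4 libraries alone (Benjamini-Hochberg adjusted p below 0.05), which is 10.2% of those tested. Of these, 11 were higher in leaf (5.88%) and 8 in flower (4.28%). The median log2 difference over all 187, leaf minus flower, was 0.11. An unadjusted p under 0.05 was found for 60 (32.1%), and the libraries of the organs did not overlap for 114 (61%), with leaf higher in 54 (28.9%) and flower higher in 60 (32.1%). When the values of all members of a family were summed in each library, 12 of 66 families were called, or 18.2%, of which 9 were higher in leaf (13.6%) and 3 in flower (4.55%). Of these 12, 3 are a single sequence each, miR5303, miR2678 and miR529. Each is already among the 19 and under 10 in each of the 4 libraries. Those 3 and miR5368 were listed at 0 in both libraries of an organ. Of the families 24 had an unadjusted p under 0.05 (36.4%), and 43 did not overlap (65.2%), 23 with leaf higher (34.8%) and 20 with flower higher (30.3%). Without leaf 1, and likewise without leaf 2, limma called 12 miRNAs and 3 families, all higher in leaf. Without flower 1 it called 16 miRNAs, 15 of them higher in flower, and 5 families, and without flower 2 it called 17 miRNAs, 15 of them higher in flower, and 12 families. In bulk tissue, fewer cells that hold a miRNA and less of it per cell cannot be told apart.

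The calls at the level of single sequences lay close to the threshold, with adjusted p from 0.0405 to 0.0428 in limma. Both libraries of the lower organ were listed at 0 for 15 of the 19, 9 of them in flower and 6 in leaf. Of the 27 miRNAs listed at 0 in both libraries of an organ 55.6% were called, against 2.5% of the 160 others. To pass the filter, these 27 needed a value of 1 or more in both libraries of the other organ. Their side and their lack of overlap were thus set by the filter. They make up 12 of the 54 non-overlapping miRNAs with leaf higher and 15 of the 60 with flower higher. The 4 called with a value in both organs were ath-miR157a-5p_2ss12TG15AG and sly-miR171e, higher in flower, and vvi-miR167b and hbr-MIR6173-p3_1ss3CT, higher in leaf. With each library scaled to the same total, limma called 17, with 14 higher in leaf and 3 in flower, and the median log2 difference over all miRNAs was 0.44 instead of 0.11. With median-of-ratios scaling it called 1, ath-miR157a-5p_2ss12TG15AG. With equal totals 8 families were called, all higher in leaf, of which 7 are among the 12.

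**Figure D1:**
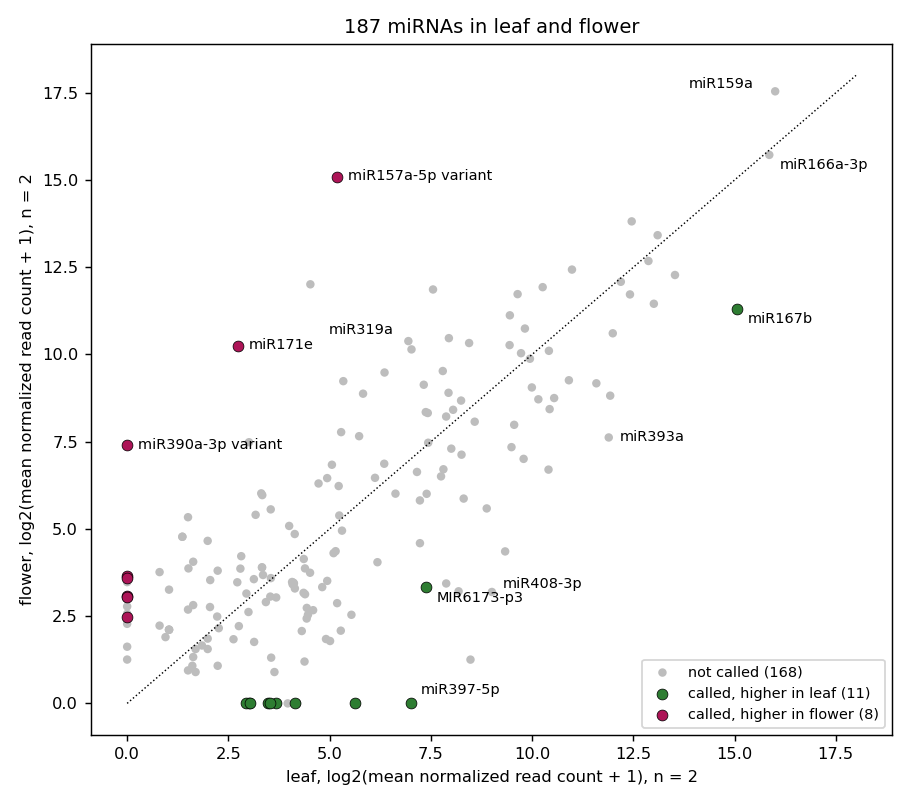
Mean level of each of the 187 miRNAs in leaf (x) and flower (y), as log2(mean normalized read count + 1) of 2 libraries each, with the dotted line marking equal levels and larger coloured points the 19 called by limma. Most called points lie on an axis, where the other organ is listed at 0, and the miR157a-5p variant, miR171e, miR167b and MIR6173-p3 are called away from both axes.

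The bulk of each library came from a few families. The 9 sequences of miR159, whose main targets are GAMYB transcription factors of anthers and seeds, held 21.3% and 30.7% of the leaf totals and 33.7% and 59.1% of the flower totals. The miR165/miR166 family, whose targets, HD-ZIP III genes, pattern the upper leaf side, held 28.4% and 18.5% in leaf and 6.1% and 17.9% in flower. Neither was called (adjusted p = 0.548 and 0.707, limma). The miR156/miR157 family went from 1.08% and 0.507% in leaf to 23.2% and 5.22% in flower, and miR167 from 12.7% and 14.3% in leaf to 0.865% and 0.61% in flower. Sequences of 21 nt held 90.4% and 88.8% of the leaf totals and 82.5% and 94.8% of the flower totals, and those beginning with T held 87.1% and 88.8% against 79.1% and 95.5%. Length and first base thus overlapped between the organs.

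**Figure D2:**
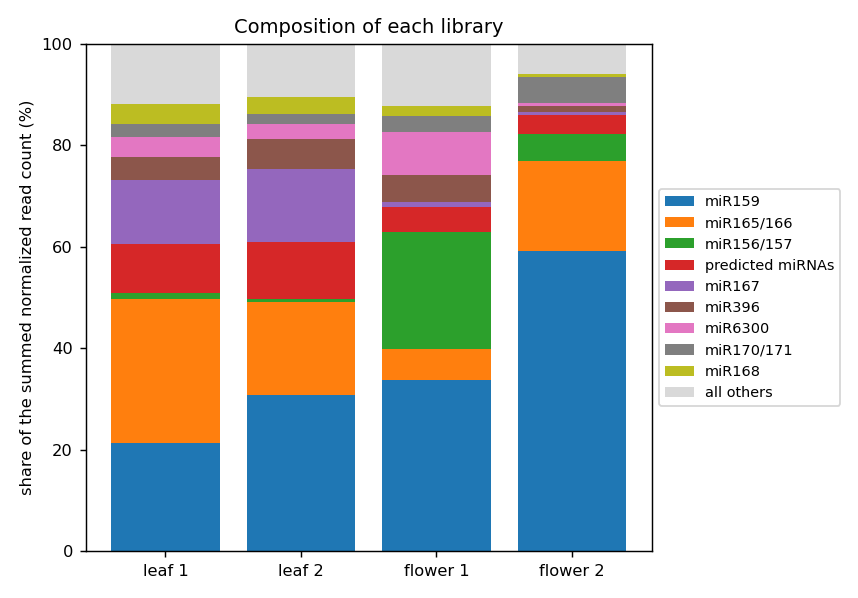
Share of the summed normalized read count held by the 9 largest groups in each of the 4 libraries, in percent, with all other sequences in grey. miR167 is 12.7% and 14.3% in leaf and under 1% in flower, miR156/miR157 is 23.2% and 5.22% in flower, and miR159 reaches 59.1% in flower 2.

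In the phase change list, flower was higher in miR156/miR157. miR156 and miR157 repress SPL genes and in Arabidopsis hold back the change from juvenile to adult growth, while miR172 represses AP2-like genes and promotes that change and floral organ identity. The summed family was 2874 and 1247 in leaf against 52122 and 28011 in flower. Both flower libraries were far above both leaf libraries. The mean was 19.4-fold higher in flower, with a log2 difference, leaf minus flower, of -4.33 ± 0.77 (SE, n = 2 a tissue, adjusted p = 0.0291, limma). With each library scaled to the same total the difference was -3.90 and the family was not called (adjusted p = 0.093, limma). Leaving out any 1 of the 4 libraries gave -4.94 to -3.73 and no call (adjusted p from 0.109 to 0.254, limma).

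Most of that sum in flower was a single 21-nt sequence. ath-miR157a-5p_2ss12TG15AG was 52.4 in leaf 1, 17.8 in leaf 2, 45306 in flower 1 and 24954 in flower 2. Both flower libraries were far above both leaf libraries, and by its mean over the 4 libraries it was the fourth most abundant sequence. Its mean was 1000-fold higher in flower (log2 difference -10.05 ± 0.82, SE, adjusted p = 0.0405, limma), and leaving out any 1 library gave -10.80 to -9.30 and no call (adjusted p from 0.0733 to 0.101, limma). The miR157 form lies wholly within the 24-nt cme-miR156a_L+1R+3_1ss15TG, whose libraries overlapped between organs. That longer sequence was 114 and 46.7 in leaf against 201 and 30.4 in flower (log2 difference -0.10, adjusted p = 0.97, limma). gma-MIR156f-p3_1ss12CG, from the other arm of a hairpin of this family, was 44 and 0 in leaf against 5757 and 2500.2 in flower, and was not called (adjusted p = 0.0689, limma). vvi-miR156a_L+1_1ss21CT differs from the miR157 form by 1 base and was listed at 0 in both leaf libraries and at 8.86 and 5.55 in flower (adjusted p = 0.0409, limma). It passed the filter through flower alone, so the filter set its side. Whether it is a miRNA of its own was not tested.

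Other members of the family lay on the leaf side without being called. The 20-nt ath-miR156j_1ss14AT starts a base later than the miR157 form, which shifts its seed along the same stretch. It was 1193 and 845 in leaf against 600.02 and 462 in flower (log2 difference 0.93 ± 0.60, SE, adjusted p = 0.361, limma). zma-miR156a-3p_1ss22TG was 1446 and 324 in leaf against 225 and 30.4 in flower (adjusted p = 0.222, limma). For both, the leaf libraries lay above the flower libraries. Of the 9 tested members 4 were on the leaf side and 5 on the flower side.

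**Figure D3:**
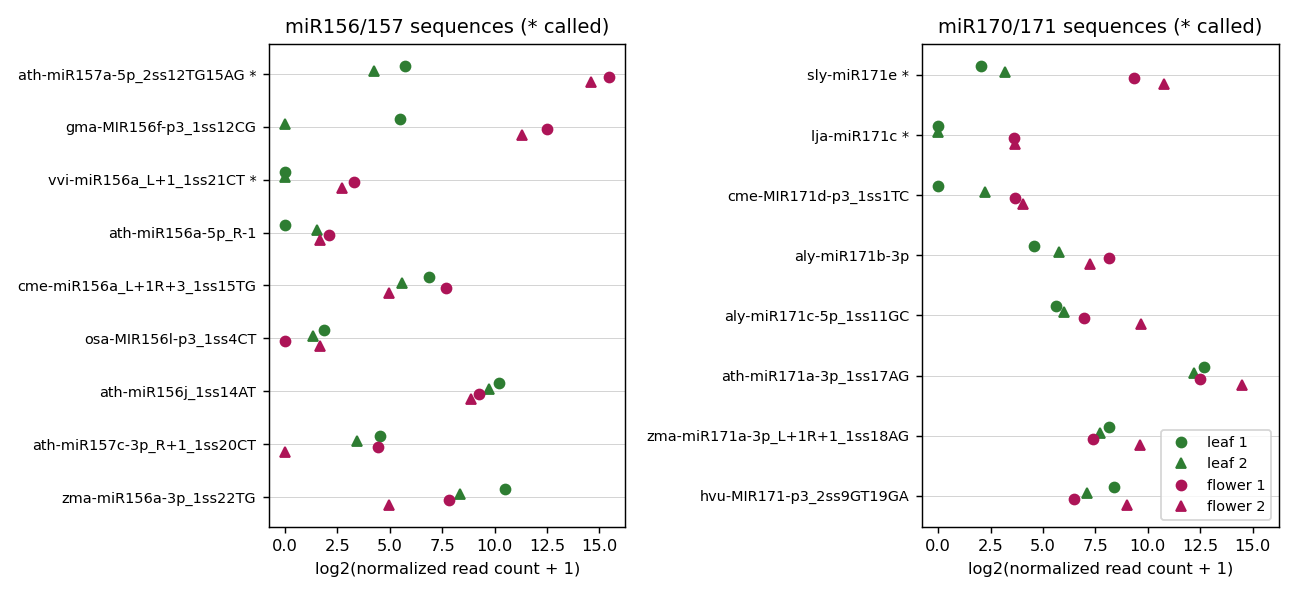
Level of each tested sequence of the miR156/miR157 family (left) and the miR170/miR171 family (right) in the 4 libraries, as log2(normalized read count + 1), with leaf in green, flower in red, replicate 1 as circles, replicate 2 as triangles and an asterisk for sequences called by limma. The miR157a-5p variant and sly-miR171e are far apart between organs, while ath-miR156j_1ss14AT lies slightly higher in leaf and the libraries of ath-miR171a-3p_1ss17AG overlap.

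The miR172 family summed to 515 and 1484 in leaf against 355 and 91.1 in flower, and was not called (adjusted p = 0.16, limma). Its main form nta-miR172d was 336 and 1102 in leaf against 243 and 80.4 in flower. Both leaf values were above both flower values, with leaf 2 setting most of the gap. In all, 5 of the 18 tested miRNAs of the list were called, 27.8% against 10.2% over all, with 3 higher in leaf and 2 in flower and a median log2 difference of 1.35. The 3 on the leaf side belong to the list by number alone. cme-MIR172d-p5_2ss8AG19AT, at 11.5 and 8.9 in leaf, and cme-MIR172d-p3_2ss7AG18AT, at 7.34 and 6.68, are purine-rich and the second lies wholly within the first. ppt-MIR529d-p3_2ss10TC17TG, at 7.34 and 5.94 in leaf, lies wholly within the predicted PC-3p-859_3455, which was 1724 and 988 in leaf against 26.8 and 179 in flower and was not called (adjusted p = 0.101, limma). All 3 were listed at 0 in flower, so the filter set their side. Of the 2 called in flower, vvi-miR156a_L+1_1ss21CT passed the filter through flower alone. Only ath-miR157a-5p_2ss12TG15AG was called with a value in both organs. ppe-MIR535a-p5_2ss12GA18CT, of an SPL-targeting relative of miR156, was 26.2 and 20.03 in leaf against 2.59 and 8.15 in flower, with no call (adjusted p = 0.181, limma).

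Among families that act on developmental transcription factors, miR319 was higher in flower. miR319 restrains class II TCP genes, which limit cell division in leaves and petals. The family summed to 247 and 203 in leaf against 2670.1 and 1577 in flower. No library overlapped, and the mean was 9.45-fold higher in flower (log2 difference -3.19 ± 0.59, SE, adjusted p = 0.0291, limma). Its main form ath-miR319a was 134 and 110.2 in leaf against 1668 and 1004 in flower, with an adjusted p of 0.053 (limma). With libraries scaled to the same total the family was not called (log2 difference -2.76, adjusted p = 0.133, limma), nor was it without leaf 1, leaf 2 or flower 1 (-3.33, -3.05 and -2.81 in that order, highest adjusted p 0.222, limma).

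In the miR171 family, which acts on GRAS genes of the SCARECROW-LIKE group, minor members differed. sly-miR171e was 3.15 and 8.16 in leaf against 658 and 1776 in flower. Both flower values were far above both leaf values, and leaf 1 was at the floor of 3 reads. Its log2 difference was -7.46 ± 0.91 (SE, adjusted p = 0.0405, limma). lja-miR171c was listed at 0 in both leaf libraries and at 11.2 and 11.8 in flower (adjusted p = 0.0405, limma). It passed the filter through flower alone, so the filter set its side. aly-miR171b-3p, which has the seed of sly-miR171e, was 22.5 and 53.4 in leaf against 286 and 150.1 in flower without being called (adjusted p = 0.135, limma). The main form ath-miR171a-3p_1ss17AG was 6605 and 4662 in leaf against 5789 and 23044 in flower. Flower 1 lay between the leaf values and flower 2 above both, and the family sum was not called (adjusted p = 0.369, limma). Of 8 tested members, 7 were on the flower side.

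miR164, which acts on NAC genes of organ boundaries, leaned the other way. The family summed to 5207 and 4199 in leaf against 313 and 1148 in flower, 6.44-fold, with an adjusted p of 0.0542 (limma). csi-miR164 was 4326 and 3474 in leaf against 206 and 696 in flower. Its leaf libraries agreed closely while the flower libraries differed, and it was not called (adjusted p = 0.0843, limma). The 2 most abundant miRNAs of the comparison overlapped between organs: ath-miR159a was 56531 and 74883 in leaf against 72286 and 309733 in flower, and bdi-miR166a-3p was 74104 and 44722 in leaf against 12937 and 95109 in flower. miR396, which acts on growth-regulating factors of dividing tissue, also overlapped, with gma-miR396a-5p at 6965 and 8047 in leaf against 7323 and 5797 in flower. nta-miR169b, of the family acting on NF-YA genes, was 35.6 and 37.1 in leaf against 59.2 and 88.9 in flower and was not called. Of 44 tested members of this list, 2 were called, both higher in flower, or 4.55% against 10.2% over all, and the median log2 difference was -0.91. Of these 2, only sly-miR171e had a value in both organs.

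The auxin list split by family. miR167 represses the auxin response factors that promote floral maturation in Arabidopsis, and miR393 represses the auxin receptors TIR1 and AFB. vvi-miR167b was 33594 in leaf 1, 34830.2 in leaf 2, 1865 in flower 1 and 3233 in flower 2. The leaf libraries were nearly equal and both were above either flower library. Its mean was 13.4-fold higher in leaf (log2 difference 3.80 ± 0.60, SE, adjusted p = 0.0405, limma), and the family sum gave 3.78 ± 0.66 (adjusted p = 0.0291, limma). Leaving out 1 library moved the sum between 3.40 and 4.15, and only without flower 2 was it called (adjusted p from 0.0411 to 0.222, limma). ath-miR167a-3p_L+1_2ss10TG11C-, from the other arm, was 281 and 352 in leaf against 73.9 and 41.1 in flower without being called (adjusted p = 0.101, limma).

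The miR393 family summed to 3716 and 4108 in leaf against 387 and 74.1 in flower. It was 17-fold higher in leaf (log2 difference 4.52 ± 0.90, SE, adjusted p = 0.0328, limma). Leaving out 1 library gave 3.33 to 5.70, called without either flower library and not called without either leaf library (adjusted p from 0.0198 to 0.301, limma). With libraries scaled to the same total it was 4.95 and not called (adjusted p = 0.0961, limma). Its main form vvi-miR393a_R+1 was 3620.3 and 3987 in leaf against 338 and 54.1 in flower, where the flower libraries differed more than the leaf ones, and it was not called alone (adjusted p = 0.0689, limma). miR160, which acts on repressive auxin response factors, had its main form ath-miR160a-5p at 1596 and 1168 in leaf against 224 and 466 in flower, and the family was not called (adjusted p = 0.104, limma).

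Of 5 tested miR390 sequences 4 lay on the flower side. Of these, ath-miR390a-3p_1ss8CT and ptc-miR390a_R+1 passed the filter through flower alone, so the filter set their side. miR390 triggers trans-acting small RNAs from TAS3 that in turn repress auxin response factors. ath-miR390a-3p_1ss8CT was listed at 0 in both leaf libraries and at 65.7 and 272 in flower (adjusted p = 0.0405, limma). ptc-miR390a_R+1 was listed at 0 in leaf and at 4.75 and 4.44 in flower (adjusted p = 0.0411, limma), and over the bases they share it differs by 1 from ath-miR390a-5p_1ss19GA, the main form, at 118 and 139.5 in leaf against 1904 and 361 in flower. The main form was higher in both flower libraries but was not called (adjusted p = 0.164, limma), and the family sum had an adjusted p of 0.0542 (limma). ath-miR390a-3p_1ss18TC, 2 bases from the form listed at 0 in leaf, was present there, at 69.2 and 34.9 in leaf against 236 and 166.6 in flower (adjusted p = 0.157, limma). hex-MIR390a-p3_2ss1TA21GT leaned to leaf, at 18.9 and 20.8 in leaf against 2.59 and 0 in flower (log2 difference 3.46, adjusted p = 0.0915, limma). Of 16 tested members of the list 3 were called, 18.8% against 10.2% over all, 1 higher in leaf and 2 in flower, with a median log2 difference of 1.74. The 2 in flower are those that passed the filter through flower alone.

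**Figure D4:**
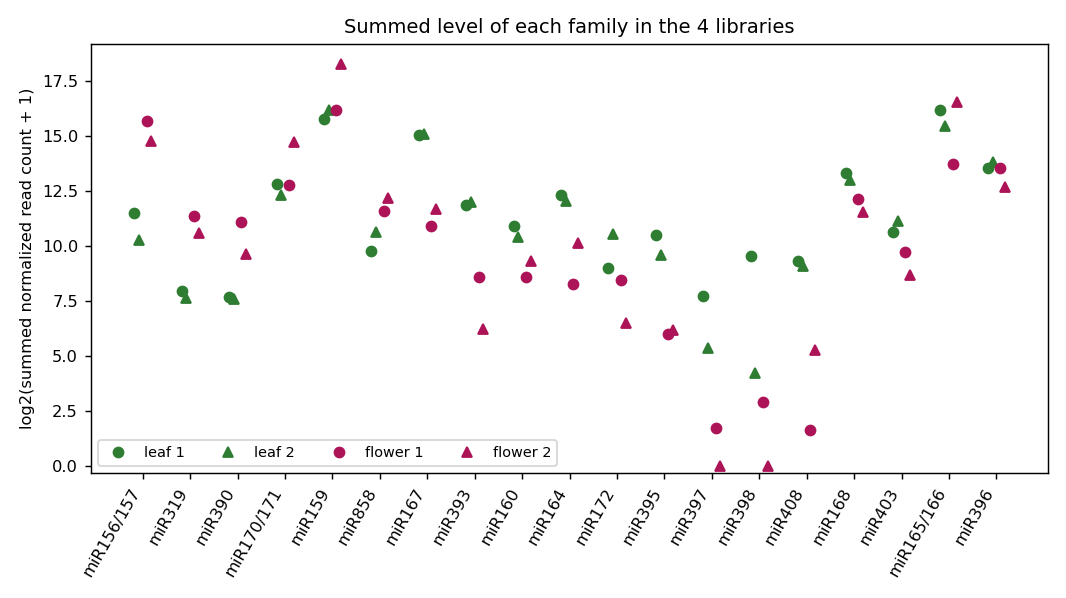
Summed level of 19 families in each library, as log2(summed normalized read count + 1), with leaf in green, flower in red, circles for replicate 1 and triangles for replicate 2. miR156/miR157, miR319 and miR390 lie higher in both flower libraries, miR167, miR393, miR395, miR397, miR398 and miR408 higher in both leaf libraries, and the miR165/miR166, miR170/miR171 and miR396 libraries overlap.

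The copper miRNAs miR397 and miR408 were higher in leaf. miR397, miR398 and miR408 accumulate when copper is short and repress copper proteins such as laccases, Cu/Zn superoxide dismutase and plantacyanin, which leaves copper for plastocyanin in photosynthesis. Of the 11 listed sequences 6 passed the filter, with a median log2 difference of 4.55 against 0.11 over all, and mtr-miR397-5p_L-2R+2 and aly-miR398a-3p_R-2 passed through leaf alone, so the side of these was set by the filter. Of the 5 that did not pass, bdi-miR397b-5p_L-1R+1 (2.38 in flower 1) and osa-MIR408-p3_1ss1CA (11.8 in flower 2) were seen in flower only, and 2 others in leaf only. mtr-miR397-5p_L-2R+2 was 216 and 40.8 in leaf and listed at 0 in both flower libraries (adjusted p = 0.0405, limma), and it was the 1 called of the 6, or 16.7% against 10.2% over all. ath-miR408-3p_L-1R+1_2ss12CT15CT was 624 and 404 in leaf against 0 and 16.3 in flower and was not called alone (adjusted p = 0.0706, limma). The flower libraries held at most a few percent of the leaf level of either.

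As summed families, miR397 was 216 and 40.8 in leaf against 2.38 and 0 in flower (log2 difference 5.70 ± 1.37, SE, adjusted p = 0.0471, limma). miR408 was 646 and 548 in leaf against 2.16 and 38.6 in flower (5.73 ± 1.41, SE, adjusted p = 0.0476, limma). Both were called, close to the threshold. Leaving out 1 library gave 4.51 to 6.88 for miR397, never called, and 3.91 to 7.56 for miR408, called only without flower 2 (highest adjusted p 0.254 and 0.37, limma). With libraries scaled to the same total miR397 was 5.76 and not called (adjusted p = 0.0891, limma). tcc-miR398a was 696 in leaf 1 but 15.5 in leaf 2, and 2.77 and 0 in flower, so that leaf 1 sets its mean, and the miR398 family was not called (adjusted p = 0.135, limma). osa-miR408-3p_L-1R+2_1ss15CT was 1.05 and 69.8 in leaf against 2.16 and 10.5 in flower, which overlap. aly-miR398a-3p_R-2, a short form, was 26.6 and 2.6 in leaf, with 0 in flower. sbi-MIR398-p3_2ss5GA18AG was 4.19 and 0 in leaf against 3.02 and 0 in flower, within a few reads of 0 throughout.

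Of the nutrient families, miR395 was higher in leaf. It responds to sulfate shortage and represses ATP sulfurylases and a sulfate transporter. The family summed to 1459 and 778 in leaf against 63.5 and 71.8 in flower. The groups lay far apart, with a mean 16.5-fold higher in leaf (log2 difference 3.96 ± 0.69, SE, adjusted p = 0.0291, limma). Leaving out 1 library gave 3.51 to 4.41 and no call (adjusted p from 0.0974 to 0.301, limma). Both arms were on the leaf side, mdm-miR395a at 485 and 455 in leaf against 32 and 62.2 in flower, and aly-miR395d-5p_2ss5TC8CG at 974 and 315 in leaf against 31.5 and 7.41 in flower, and neither was called alone (adjusted p = 0.0608 and 0.0664, limma). mdm-miR399a, whose family acts on PHO2 and so on phosphate uptake, was 33.6 and 28.9 in leaf against 1.94 and 2.96 in flower (adjusted p = 0.0664, limma). Both flower values were close to the floor of 3 reads. ptc-miR827_1ss20AC was 237 and 210 in leaf against 145 and 62.2 in flower, and ppe-miR2111a was 0 and 14.1 in leaf against 21.6 and 335 in flower, neither called. Of 9 tested members 0 were called by limma, against 10.2% over all, and 4 had an unadjusted p under 0.05, against 32.1%, with a median log2 difference of 0.69.

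None of the families that act on the silencing machinery was called as a sum. ath-miR168a-5p, which represses AGO1, was 9026 and 7440 in leaf against 2980 and 2629 in flower, 2.94-fold, with no overlap and an adjusted p of 0.149 (limma). mes-miR403a_1ss19TC, which represses AGO2, was 1572 and 2273 in leaf against 821 and 404 in flower (adjusted p = 0.176, limma). lus-miR162a, which represses DCL1, was 587 and 1106 in leaf against 864 and 1236 in flower, which overlap. Of 8 tested members 1 was called, 12.5% and so near the 10.2% over all: lus-MIR162b-p3_2ss16GA17AG, listed at 0 in leaf and at 13.4 and 8.89 in flower, and the median log2 difference was 0.39. That 18-nt sequence is in the list by its number alone, and the filter set its side.

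The MYB families act in phenylpropanoid metabolism. ath-miR858b was 856.6 and 1597 in leaf against 3138 and 4664 in flower. Both flower libraries were higher, 3.18-fold, without a call (log2 difference -1.71 ± 0.65, SE, adjusted p = 0.164, limma). The 19-nt ppe-miR858_R-2, which differs from it by 1 base over the 19 compared, was 11.5 and 11.9 in leaf, with 0 in flower (log2 difference 3.67 ± 0.50, SE, adjusted p = 0.0405, limma), so the short relative and the main form lay on opposite sides. The side of the short relative was set by the filter. Of 5 tested members of the list this 1 was called, against 10.2% over all, and the median log2 difference was 1.18. gma-miR828a was 58.7 and 225 in leaf against 183 and 13.3 in flower, which overlap.

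Most families of the immune receptor list target NLR genes, and miR6022 targets genes of receptor-like proteins in tomato relatives. Of 11 tested members 0 were called by limma, against 10.2% over all, and 3 had an unadjusted p under 0.05, near the 32.1% over all, with a median log2 difference of -1.34. mtr-miR5213-5p_R-1_1ss2AG, the main one, was 2353 and 1699 in leaf against 3267 and 7796 in flower (adjusted p = 0.278, limma). sly-MIR6022-p3_2ss15TG17GA was 81.8 and 217 in leaf against 9.94 and 36.3 in flower (adjusted p = 0.164, limma). mtr-MIR2678-p5_1ss5AG, which differs from the miR5213 form by 1 base and has a name outside the list, was called, at 8.39 and 5.94 in leaf and 0 in flower. Its side was set by the filter. The 3 with an unadjusted p under 0.05 all carry the number MIR482d. gra-MIR482d-p5_1 is a dinucleotide repeat and was 3.15 and 0 in leaf against 13.2 and 39.6 in flower. gra-MIR482d-p5_2 had the same value in each library. gra-MIR482d-p5_2ss13CA21TC was 0 in both leaf libraries and 1.73 and 10 in flower, so the filter set its side. Of 7 tested miR482 members 5 lay on the flower side and 2 on the leaf side. osa-MIR2118e-p3_2ss13TA19CT was 22.5 and 17.4 in leaf against 14.3 and 13 in flower.

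Of the last conserved families, ath-miR394a, which represses the F-box gene LCR, was 692 and 706 in leaf against 884 and 3574 in flower and was not called (adjusted p = 0.382, limma). ppe-miR530_L-2R+2 was 5720.3 in leaf 1 but 433 in leaf 2, and 291 and 862 in flower. None of the 5 tested members of the F-box and other conserved list was called by limma, against 10.2% over all, and 0 had an unadjusted p under 0.05, against 32.1%, with a median log2 difference of -0.75.

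**Figure D5:**
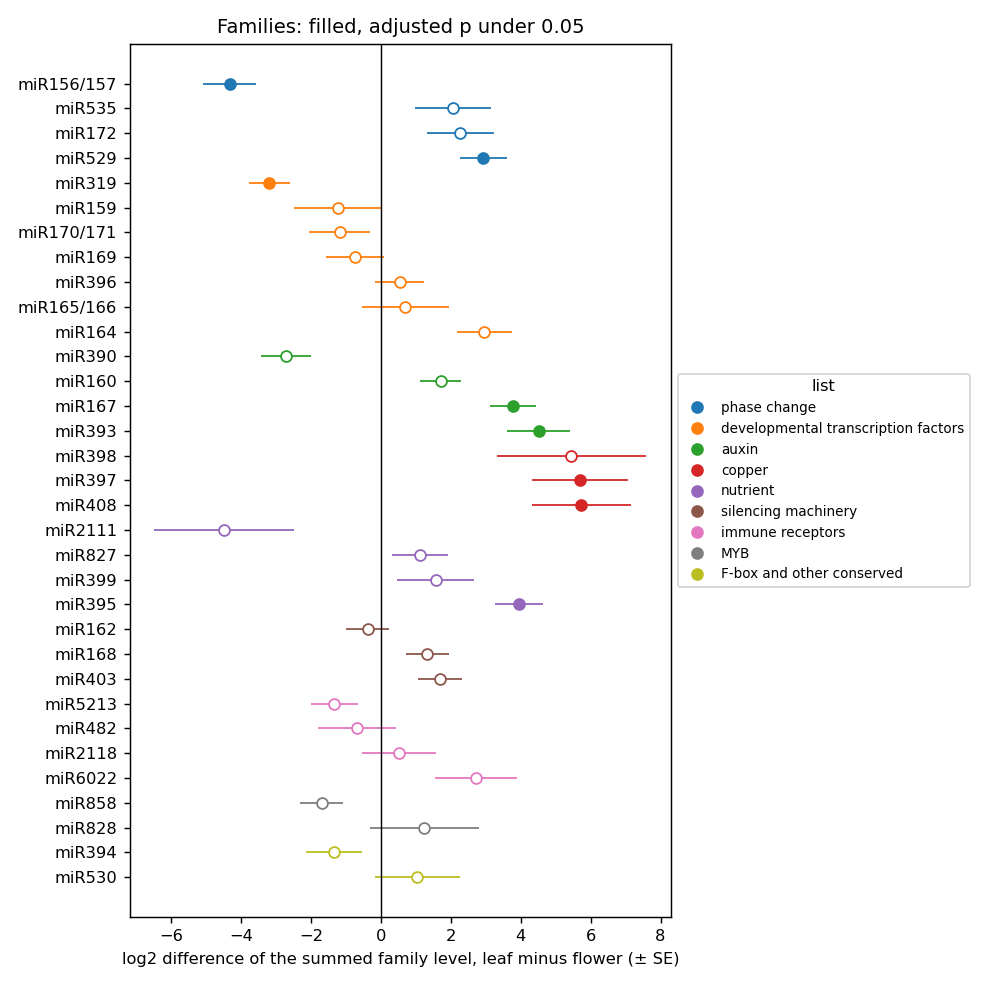
Log2 difference of the summed family level, leaf minus flower, for the families of the 9 lists, with bars for ± 1 SE from limma and filled points for an adjusted p under 0.05. miR156/miR157 and miR319 are called on the flower side and miR529, miR167, miR393, miR397, miR408 and miR395 on the leaf side, where miR529 is a single sequence of under 10 in each library.

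The predicted miRNAs, which the authors found without a match in miRBase, leaned to leaf. Of 19 tested, 17 were on the leaf side and 2 on the flower side, against 99 and 88 over all 187, with a median log2 difference of 1.23. Limma called 0 of them, against 10.2% over all, and 3 had an unadjusted p under 0.05, against 32.1%. Of these 3, PC-5p-52165_86 was 27.3 and 7.42 in leaf and 0 in both flower libraries, so the filter set its side. The most abundant, PC-5p-97_25693, was 12229 and 11412 in leaf against 3097 and 6837 in flower (adjusted p = 0.246, limma). PC-3p-96_26140 was 6771 and 2583 in leaf against 5610.4 and 3071 in flower, which overlap.

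The other families held 6 of the calls, 13% of the 46 tested and near the 10.2% over all. hbr-MIR6173-p5 was 55.6 and 41.2 in leaf, with 0 in flower (adjusted p = 0.0405, limma). hbr-MIR6173-p3_1ss3CT was 182 and 149.9 in leaf against 7.78 and 10.4 in flower (adjusted p = 0.0428, limma). The 3 sequences with this number summed to 543 and 466 in leaf against 9.51 and 25.2 in flower, and none was checked against ribosomal or organelle RNA. The pair gma-MIR5368-p3_1ss7TC, at 23.1 and 10.4 in leaf, and gma-MIR5368-p3_2ss1AT18CA, at 13.6 and 7.42, was listed at 0 in flower and was not checked either. stu-MIR5303j-p3_2ss10GT17CT was listed at 0 in leaf and at 9.07 and 5.92 in flower. gma-miR6300_R+5, among the 10 most abundant, was 10308 and 7257 in leaf against 18850.1 and 3059 in flower, which overlap. Among sequences of 18 or 19 nt 16.1% of 56 were called, against 7.63% of 131 of 20 nt or longer. All 9 called at 18 or 19 nt were listed at 0 in both libraries of an organ. The filter set their side, so the contrast by length rests on such members.

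Seeds and near copies describe how the calls relate. Among the 187, 59 miRNAs fell into 26 groups with the same seed, and in 18 groups all members lay on 1 side while in 8 they lay on both. Most groups are pairs, the members of the mtr-MIR2592ay pair had identical values, and in some groups the filter set the side of a member. What split unrelated miRNAs would give was not tested. Of the 19 called, 11 either lay within or overlapped another listed sequence or differed from one by at most 2 bases, so the calls are not that many separate measurements.

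Root and fruit place these levels in the series, without a test. The miR156/miR157 sum was 2033 and 1606 in root, near leaf, and 727 and 17258 in fruit, where 1 library lay below leaf and the other between leaf and flower. miR167 was 572 and 1622 in root against 1557 and 18724 in fruit, so that leaf was above all other libraries. miR319 was 10494 and 2680.3 in root, above both flower libraries, and 831 and 5164 in fruit, below and above them. miR395 was 253 and 10.2 in root and 0 and 12 in fruit, and miR408 was 9.48 and 0 in root and 0 and 15.7 in fruit, both under leaf in every library. Of the 19 called miRNAs, 4 were listed at 0 in all root and fruit libraries.

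Flower 1 also held miRNAs known from grasses. A total of 6 sequences of miR528, miR444, miR1432, miR7757 and miR9773, chosen after their values were seen, summed to 96.6 in flower 1 and 127 in fruit 2 and were listed at 0 in the other 6 libraries. ata-miR528-5p was 23.3 in flower 1 and 36.9 in fruit 2. None passed the filter, since flower 2 and both leaf libraries had 0, and the sum was 0.0431% of flower 1. Also listed only in flower 1 and fruit 2 were ata-miR168-3p_1ss6CG, at 14.3 and 30.4, and bdi-miR393b-3p, at 6.05 and 10.1. These lie outside that share but count in the miR168 and miR393 family sums. Whether flower 1 and fruit 2 hold RNA of another plant, and what part that has in the flower 1 values, was not tested. Without flower 1, the log2 difference was -3.89 for miR156/miR157 (adjusted p = 0.118), 3.40 for miR167 (adjusted p = 0.0518), 5.70 for miR393 (adjusted p = 0.0198) and -2.81 for miR319 (adjusted p = 0.0684, all limma).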

How the data were processed

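Small RNA libraries were made with a TruSeq kit and sequenced on a HiSeq instrument, and reads passed ACGT101-miR, which filtered out adapter dimers, junk, simple and repeated sequence and rRNA, tRNA, snRNA and snoRNA, per the labels' protocols. The deposited values are normalized read counts, treated as a signal, per the file headers; how they were normalized is not given in the sources used here. Entries of identical sequence had identical values and count as 1 miRNA, named by the first entry. Values of leaf and flower were set on a log2 scale with a pseudocount of 1. The limma fit (limma 3.58.1, R 4.3.3) used a mean trend and had 2 residual and 2.04 prior degrees of freedom. Family sums used the number in each name, with miR156 and miR157, miR165 and miR166, and miR170 and miR171 joined. Log2 differences understate changes of low values, folds are ratios of mean values, and none is given against an organ listed at 0. Named miRNAs were all those called, the 10 most abundant, the main member of each listed family with a mean of at least 10, and the tested copper miRNAs; others named were chosen after their values were seen. The members and lists were chosen with earlier results of these data known. 0 names had an animal prefix.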

Additional observations from a re-analysis of the deposited data

How the results depend on the processing

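With 2 libraries an organ, every miRNA call lay close to the threshold. None of the 19 called miRNAs or 12 called families changed direction under any alternative run. For the 15 of the 19 listed at 0 in both libraries of an organ, another pseudocount, scaling or a left-out library could not have reversed it. The same holds for the families miR5368, miR5303, miR2678 and miR529. The 19 became 1 with a pseudocount of 10, no filter, median-of-ratios scaling, quantile normalization, robust moderation or only sequences of 20 nt or longer, 9 with a minimum value of 10, and 0 without the trend or with library weights, where 61 had an unadjusted p under 0.05 each. ath-miR157a-5p_2ss12TG15AG was called in 11 of 18 alternatives. The 12 families became 7 with no filter, 8 with equal totals, 4 in a fit of all 8 libraries, 14 with median-of-ratios scaling and 16 with sequences of 20 nt or longer, and 10 of the 12 were called in at least 1 of every 2 alternatives. Leaving out 1 library gave 12 to 17 miRNAs and 3 to 12 families: without leaf 1 or leaf 2 it was 12 and 3, all higher in leaf, without flower 1 16 and 5, and without flower 2 17 and 12. In these fits the lone library is assumed to vary like the other organ. The deviations of same-numbered libraries had a correlation of -0.005 across miRNAs. That value shows no pattern of miRNAs shared by replicate number, but cannot tell whether same-numbered libraries share a plant or a batch. With a replicate block 3 miRNAs and 11 families were called. The cause of these changes was not tested.

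Some uncalled log2 differences changed sign when 1 library was left out, and their lowest and highest values were -0.21 and 3.51 for ppe-miR530_L-2R+2, -0.81 and 0.10 for lus-miR162a, -1.12 and 1.5 for gma-miR6300_R+5, -1.0 and 1.37 for sbi-MIR398-p3_2ss5GA18AG, -0.68 and 0.71 for PC-3p-96_26140, -1.56 and 3.55 for osa-miR408-3p_L-1R+2_1ss15CT, -0.72 and 2.15 for bdi-miR166a-3p and -0.67 and 3.02 for gma-miR828a. For the sums they were -0.66 and 2.74 for miR530, -0.83 and 0.07 for miR162, -0.71 and 2.10 for miR165/miR166, -0.65 and 3.14 for miR828 and -1.57 and 0.18 for miR482. With equal totals lus-miR162a was 0.08 and the miR162 sum 0.05, with median-of-ratios scaling PC-3p-96_26140 was -0.08, and with quantile normalization gma-miR6300_R+5 was -0.12 and the miR2118 sum -0.86.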
